A study of Mus musculus with 24 samples.

Results

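The non-fibrillar collagens are the chains that do not build the striated fibrils of bone and skin, and they were followed here in cultured mouse osteoblasts (OBs) that carry a mutation in a fibrillar collagen. The members were all genes whose symbol has the form of a collagen chain (Col, a number, a, a number), less the chains of the fibrillar types and of types IX and X. The rule kept 29 of 44 collagen chain genes, from 18 collagen types, among 55335 genes counted in every library. Primary OBs came from parietal bones (the flat bones of the skull roof) of pups a few days old. They were kept under osteogenic differentiation with ascorbic acid 2-phosphate, and polyA RNA was sequenced on day 8, day 14 or day 21 of culture. WT cultures carried 2 normal *Col1a2* copies on the C57BL/6J background. Het cultures came from Het G610C mice on the same background, which replace a glycine of the triple helix of the pro-α2(I) chain with cysteine in 1 *Col1a2* copy of every cell. A single base change of this kind cannot be checked in gene counts. Each genotype had 4 libraries on each day, 24 in all, and each preparation pooled cells of several pups of 1 genotype, so the spread between libraries may be partly technical and no library stands for 1 animal.

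Collagens are trimers with a Gly-X-Y repeat. Collagen IV chains form the network of basement membranes, collagen VI forms beaded filaments around cells, collagen VII forms the anchoring fibrils of skin, and collagen VIII forms hexagonal lattices. The fibril-associated collagens (FACITs) sit on the surface of collagen I and II fibrils, the transmembrane collagens (MACITs) span the cell membrane, and the multiplexins XV and XVIII carry glycosaminoglycan chains and release antiangiogenic fragments. In bone, collagen VI and the FACIT XII are known pericellular and fibril surface components of osteoblasts and periosteum, and collagen XIII sits at the osteoblast surface.

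Levels are given as RQ, the counts of a gene per 1000 counts of the geometric mean of the housekeeping genes *Actg1*, *Actb*, *Mrfap1* and *Sdha*. Library totals ran from 17140202 to 59734231 counts. The 6 replicate 1 libraries were the shallowest, at 17140202 to 25825762 counts, and they stood apart from replicates 2 to 4 in several members, so the results that rest on them are also given without them. By the methods, the wells came from 2 separate cell preparations of different litters, with 6 wells per genotype at days 14 and 21, where 8 libraries are analysed here. The 4, 8 or 16 libraries of a group thus stand for few preparations, and p-values measure only the spread between these libraries. The labels do not tie a replicate number to an experiment, an incubator or a plating density. If replicates 2 to 4 were wells of 1 preparation, the p-values without replicate 1 would measure only the spread between wells. In bulk RNA, fewer cells of a type and less RNA per cell cannot be told apart. Of 11 osteoblast and osteocyte markers, 9 had at least 10 counts in every library, and *Mepe* and *Sost* did not. Their summed RQ rose from 784 to 1896 at day 8 to 10069 to 40907 at days 14 and 21, with all 11 genes higher. Other cells were present: 7 of 8 chondrocyte markers and 10 of 11 macrophage and osteoclast markers had at least 10 counts in every library, against 1 of 10 endothelial, 0 of 8 epithelial and 1 of 8 skeletal muscle markers. The chondrocyte markers summed to 5552 to 34252 RQ at day 8 and to 1200 to 22648 RQ later, and the macrophage markers to 722 to 1385 and to 2247 to 17201 RQ. The adipocyte markers summed to 36.2 to 369 RQ, the Schwann cell and neuron markers to 31.3 to 104 RQ, the fibroblast markers to 4975 to 11205 RQ and the pericyte and smooth muscle markers to 2949 to 5285 RQ. The part of these cells in the results below was not tested.

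Of the 29 members, 20 had at least 10 counts in every library. The other 9, *Col4a3*, *Col4a4*, *Col6a4*, *Col6a5*, *Col6a6*, *Col17a1*, *Col19a1*, *Col25a1* and *Col28a1*, averaged under 50 counts. *Col6a6* had 0 to 4 counts in each library, so no fold was computed for it. To set genes beside each other, levels were divided by the gene length listed with the counts, 4380 bases for *Col6a1* and 8326 for *Col6a2*. The length of the transcripts made in these cells was not measured, so the order between genes is approximate. Per kilobase of listed length, *Col6a1* led with a mean level of 989 RQ over the 24 libraries. It was followed by *Col12a1* at 429, *Col6a2* at 408, *Col6a3* at 269, *Col16a1* at 184, *Col8a2* at 174, *Col4a1* at 163, *Col4a2* at 138 and *Col8a1* at 101 RQ per kb. A middle group held *Col13a1* at 53.2, *Col22a1* at 42.4, *Col18a1* at 28.6, *Col4a5* at 27.5 and *Col14a1* at 19.4 RQ per kb. Below 10 RQ per kb lay *Col26a1* at 7.79, *Col7a1* at 3.34, *Col15a1* at 1.64, *Col23a1* at 1.07, *Col4a6* at 0.935 and *Col20a1* at 0.593, and the 9 sparse members followed at 0.362 or less. The 4 genes *Col6a1*, *Col6a2*, *Col6a3* and *Col12a1* together took 66.6% to 83.2% of the members' reads in a library. *Col17a1*, the hemidesmosome collagen of skin, was among these sparse members.

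The first question was how the members changed as the cultures matured. The fibril-associated *Col22a1* and the cell surface collagen *Col13a1* made the largest change among members with at least 50 counts on average, from at most 32.1 RQ at day 8 to at least 214 RQ at days 14 and 21. *Col15a1*, *Col8a1*, *Col4a1*, *Col4a2*, *Col26a1* and *Col20a1* also rose, *Col18a1*, *Col14a1*, *Col7a1*, *Col4a5* and *Col16a1* fell, and the abundant *Col6a1*, *Col6a2*, *Col6a3* and *Col12a1* did not pass the test. By edgeR's quasi-likelihood test at an adjusted p (Benjamini-Hochberg) under 0.05, 13 of 28 tested members rose and 7 fell between day 8 and days 14 and 21. Of the 13, the sparse *Col4a3*, *Col4a4*, *Col6a4*, *Col6a5* and *Col19a1* did not pass the low-count filter at day 8 and entered through the later libraries where they are higher, so their calls support nothing. In the same comparison 58.3% of 20434 genes were called, 40.9% as higher and 17.4% as lower. The median member differed by a log2 of 0.17 and the median gene by 0.16. With libraries scaled to total counts the gene median moved to −0.14, the member split to 10 higher and 9 lower, and the calls over all genes to 64.4% (21.4% higher, 43.0% lower). With TMM scaling the gene median was 0.03, the split 13 higher and 9 lower, and the calls 59.2% (31.2% higher, 28% lower). *Col6a1* (−0.50) and *Col6a2* (−0.40) were then called lower on total counts, as they were with TMM, while *Col20a1*, *Col19a1* and *Col6a4* lost their calls on total counts. Without replicate 4, 12 members rose and 4 fell (46.5% of genes called).

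**Figure D1:**
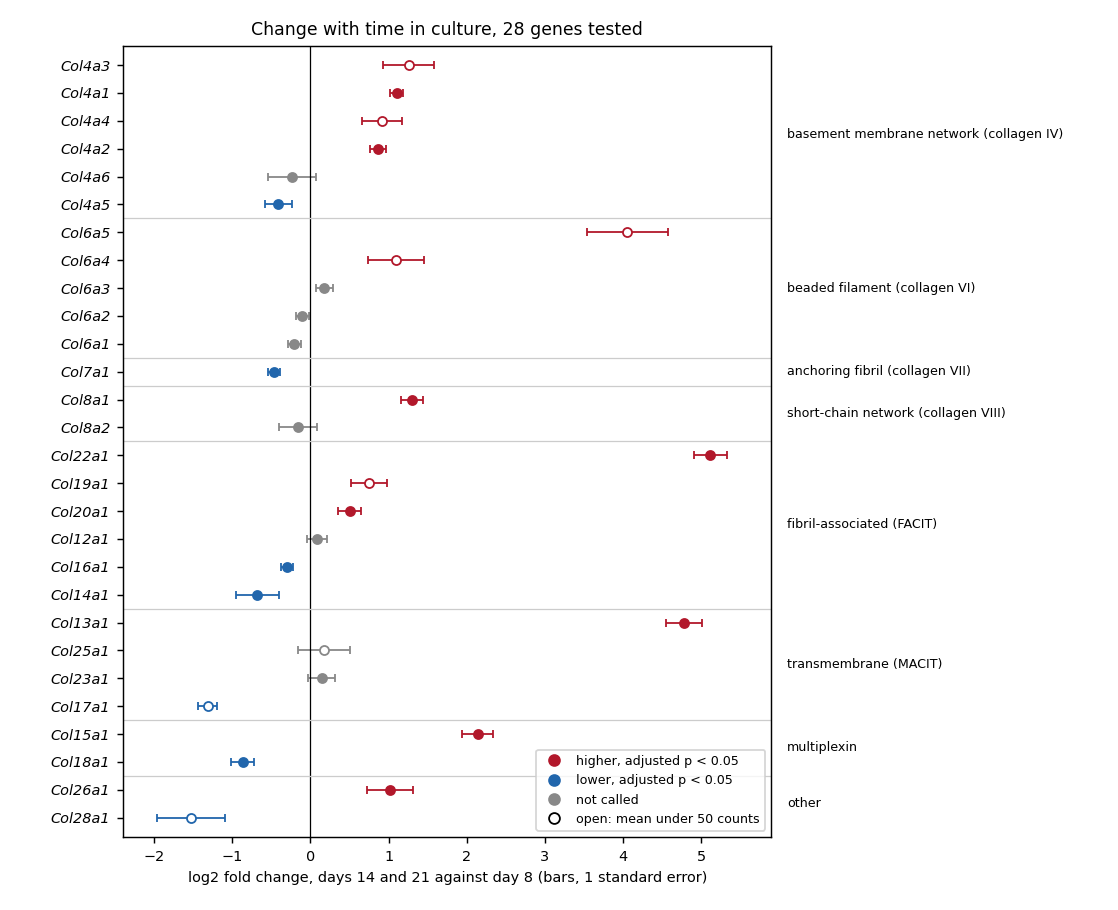
Change of 28 non-fibrillar collagen genes from day 8 to days 14 and 21, grouped by collagen class, as log2 fold change on the housekeeping scale with its standard error. *Col22a1* at 5.12 and *Col13a1* at 4.78 lie far to the right of the abundant *Col6a1* at −0.21 and *Col12a1* at 0.08.

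*Col22a1*, a FACIT of tissue junctions, lies on chromosome 15 (71795795 to 72034227, minus strand, mm10). In WT OBs its level was 12.3, 32.1, 31.6 and 25.7 RQ at day 8 in replicates 1 to 4, then 369, 544, 592 and 502 RQ at day 14 and 748, 805, 898 and 825 RQ at day 21. In Het OBs it was 14.0, 6.85, 10.2 and 9.20 RQ at day 8, 424, 576, 268 and 261 RQ at day 14 and 724, 556, 619 and 501 RQ at day 21. Every later library lay above every day 8 library, and the Het libraries of replicates 2 to 4 were the lowest at day 8. Averaged over genotypes the fold was 34.7 (log2 5.12 ± 0.21 SE, edgeR adjusted p = 4.68e-14), with means of 576 ± 190 (SD, n = 16) against 17.8 ± 10.4 RQ (n = 8). Its exons overlap an antisense gene, *Gm16308*, and the strand rule of the counting is not given, so reads of the overlap cannot be told apart.

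*Col13a1*, a transmembrane collagen of cell adhesion sites, lies on chromosome 10 (61838236 to 61979108, minus strand). Its WT level was 6.95, 22.8, 24.4 and 17.8 RQ at day 8, 216, 425, 478 and 356 RQ at day 14 and 459, 480, 498 and 491 RQ at day 21. Its Het level was 7.83, 8.23, 10.2 and 9.69 RQ at day 8, 221, 433, 224 and 215 RQ at day 14 and 422, 297, 316 and 242 RQ at day 21. Again no later library overlapped day 8, and the WT libraries of day 21 lay close together. The fold was 27.5 (log2 4.78 ± 0.23 SE, adjusted p = 3.16e-13; 361 ± 112 RQ, n = 16, against 13.5 ± 7.08 RQ, n = 8). The other transmembrane members behaved otherwise. *Col23a1* stood at 3.13 to 10.1 RQ over all days and was not called (log2 0.14 ± 0.17), *Col25a1* had 1 to 34 counts (0.17 ± 0.33), and *Col17a1* fell from 1.90 to 3.18 RQ at day 8 to 0.594 to 1.42 RQ later (−1.32 ± 0.12, adjusted p = 7.65e-09).

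**Figure D2:**
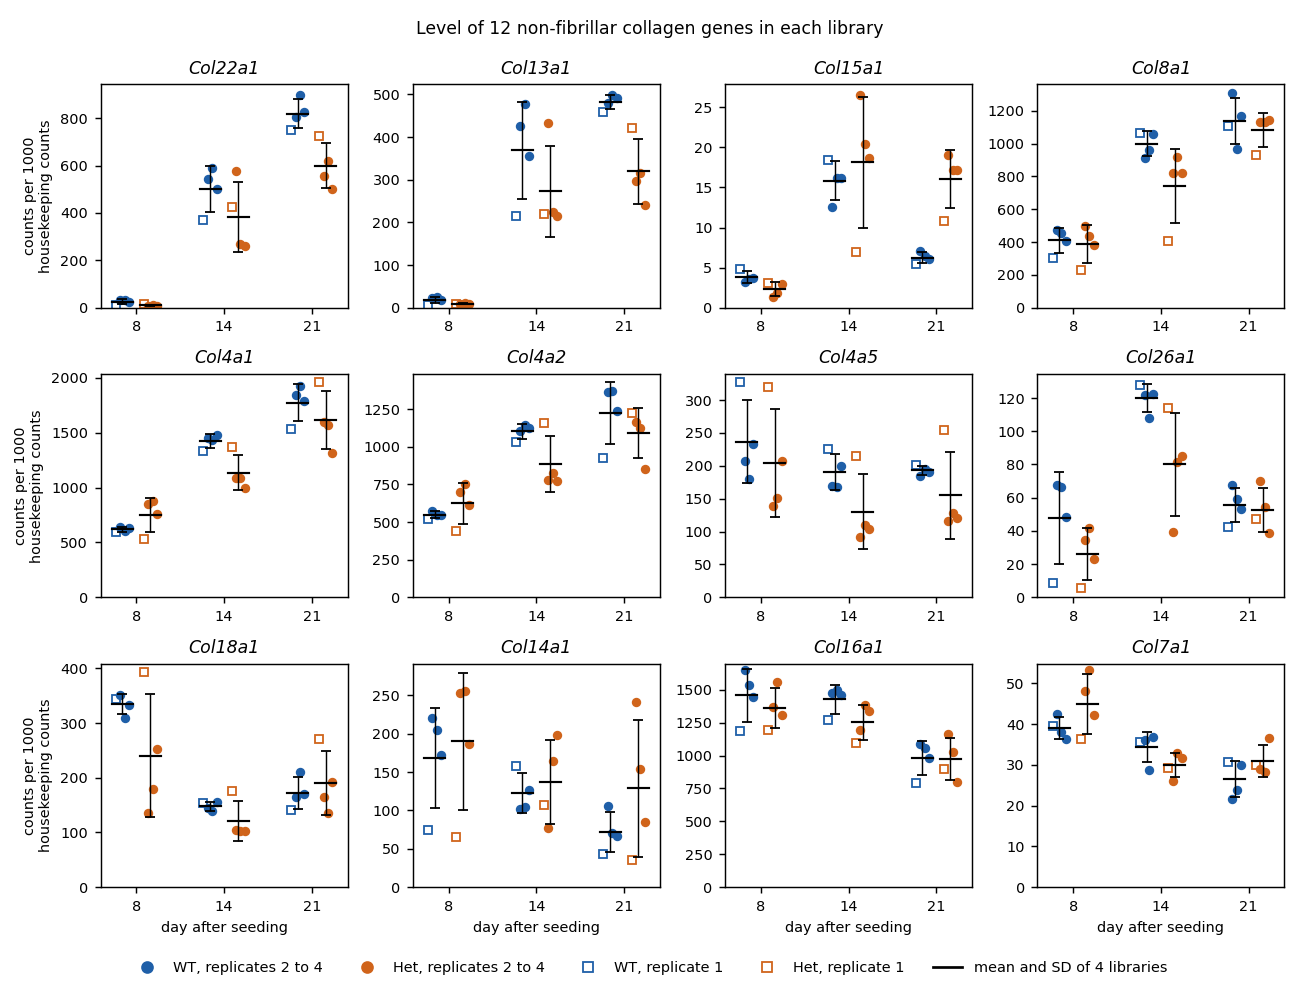
Levels of 12 members (RQ, counts per 1000 housekeeping counts) by day and genotype, 1 point per library, with mean and SD of the 4 libraries of a group and replicate 1 as open squares. *Col22a1* and *Col13a1* climb from under 33 RQ at day 8 to at least 214 RQ in every later library. In WT, *Col18a1* is higher in every day 8 library than in any later library, while its Het libraries overlap between days.

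The multiplexins moved in opposite directions. *Col15a1*, which marks the basement membrane zone of muscle and vessels, lies on chromosome 4 (47208161 to 47313167, plus strand). In WT OBs it stood at 4.89, 3.18, 3.59 and 3.76 RQ at day 8, 18.4, 12.6, 16.2 and 16.2 RQ at day 14 and 5.48, 7.06, 6.45 and 6.03 RQ at day 21. In Het OBs it stood at 3.13, 1.38, 1.84 and 2.91 RQ at day 8, 6.91, 26.6, 20.4 and 18.6 RQ at day 14 and 10.8, 19.1, 17.1 and 17.2 RQ at day 21. The WT libraries peaked at day 14, and the Het libraries of replicates 2 to 4 stayed high at day 21. From day 8 to days 14 and 21 it rose 4.42-fold (log2 2.14 ± 0.20 SE, adjusted p = 5.86e-09; 14.1 ± 6.32 RQ, n = 16, against 3.09 ± 1.10 RQ, n = 8), without overlap. The counts behind these levels were 41 to 558 per library, and an antisense gene, *Gm12426*, overlaps its exons.

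*Col18a1*, the source of endostatin, lies on chromosome 10 (77052178 to 77166548, minus strand) and had a WT level of 344, 351, 310 and 333 RQ at day 8, 153, 144, 139 and 155 RQ at day 14 and 142, 166, 210 and 170 RQ at day 21. The Het level was 393, 136, 180 and 253 RQ, then 176, 104, 103 and 102 RQ, then 272, 164, 135 and 192 RQ. It fell to 0.548 of its day 8 level (log2 −0.87 ± 0.15, adjusted p = 3.54e-05), lower at the later days in 8 of 8 pairs of a genotype and a replicate number. The ratio of *Col15a1* to *Col18a1* counts within a library, which does not depend on the scale, went from a geometric mean of 0.0106 at day 8 to 0.0823 at days 14 and 21 (two-sided exact permutation test, adjusted p = 1.9e-05 over 14 ratio tests).

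Collagen IV was described chain by chain, because its chains assemble in fixed partnerships: α1 with α2, α3 and α4 with α5, and α5 with α6. The genes lie in head-to-head pairs. In mm10 the 5′ ends of *Col4a1* and *Col4a2* overlap by 22 bases on chromosome 8, those of *Col4a4* and *Col4a3* are 71 bases apart on chromosome 1, and those of *Col4a6* and *Col4a5* are 1308 bases apart on chromosome X. *Col4a1* had 597, 643, 605 and 635 RQ at day 8 in WT, 1331, 1448, 1432 and 1478 RQ at day 14 and 1536, 1845, 1926 and 1786 RQ at day 21. In Het it had 532, 846, 874 and 758 RQ, then 1372, 1085, 1087 and 1000 RQ, then 1963, 1600, 1575 and 1317 RQ. All later libraries lay above all day 8 libraries, and day 21 above day 14 in 8 of 8 pairs. The change from day 8 was 2.15-fold (log2 1.10 ± 0.09, adjusted p = 4e-10; 1486 ± 293 against 686 ± 125 RQ).

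*Col4a2* rose 1.82-fold (log2 0.87 ± 0.10, adjusted p = 1.54e-07), from 440 to 751 RQ at day 8 to 771 to 1369 RQ later. The *Col4a2* to *Col4a1* ratio fell from 0.857 to 0.726 (exact permutation, adjusted p = 0.000238). *Col4a5* went the other way: it fell to 0.75 of its day 8 level (log2 −0.41 ± 0.17, adjusted p = 0.0451), a call that was lost when replicate 2, 3 or 4 was left out (adjusted p = 0.0922, 0.0811 and 0.206). The *Col4a5* to *Col4a1* ratio fell from 0.312 to 0.11 (exact permutation, adjusted p = 1.9e-05). *Col4a6* was low, at 2.23 to 13.5 RQ, and was not called (−0.24 ± 0.31). *Col4a3*, with 1 to 23 counts in a library, went from 0.11 to 0.345 RQ at day 8 to 0.0990 to 0.939 RQ later (log2 1.26 ± 0.33, adjusted p = 0.00221), and its neighbour *Col4a4*, with 5 to 25 counts, from 0.184 to 0.783 RQ to 0.367 to 1.47 RQ (0.92 ± 0.26, adjusted p = 0.00416). Both were below the filter at day 8 and entered the test through the later libraries, both remained the scarcest collagen IV chains, and the *Col4a4* call was lost without replicate 4 (adjusted p = 0.0762).

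The promoter entries of RefSeq (GRCm38.p6) cover 24 of the 29 members, and none was given for *Col12a1*, *Col14a1*, *Col22a1*, *Col26a1* and *Col4a3*. The 250 bases before the start are shown for the 3 members with the strongest rise among those with an entry and at least 50 counts on average, and for *Col7a1*, which fell in every pair of libraries, with the bases between the *Col4a4* and *Col4a3* starts as the shared region of the sparsest pair. Each is written 5′ to 3′ in lower case, on the strand of the gene or of *Col4a4*, with matched motifs in capitals.
Col13a1, chr10:61979109-61979358, minus strand: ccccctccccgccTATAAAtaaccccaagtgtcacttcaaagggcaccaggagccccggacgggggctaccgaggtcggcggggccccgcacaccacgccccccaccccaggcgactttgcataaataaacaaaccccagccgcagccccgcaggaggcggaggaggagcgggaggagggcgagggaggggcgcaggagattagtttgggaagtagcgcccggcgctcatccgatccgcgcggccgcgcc
Col15a1, chr4:47207762-47208011, plus strand: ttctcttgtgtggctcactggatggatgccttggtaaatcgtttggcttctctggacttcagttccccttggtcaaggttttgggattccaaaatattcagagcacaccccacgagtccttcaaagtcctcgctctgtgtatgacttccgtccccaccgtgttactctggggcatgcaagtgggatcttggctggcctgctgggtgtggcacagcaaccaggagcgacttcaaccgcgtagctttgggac
Col8a1, chr16:57754738-57754987, minus strand: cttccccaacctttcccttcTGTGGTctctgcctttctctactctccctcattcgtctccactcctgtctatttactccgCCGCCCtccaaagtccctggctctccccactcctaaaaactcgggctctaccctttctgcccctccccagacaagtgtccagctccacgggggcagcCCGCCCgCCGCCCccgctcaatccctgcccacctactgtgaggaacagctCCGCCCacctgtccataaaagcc
Col7a1, chr9:108953336-108953585, plus strand: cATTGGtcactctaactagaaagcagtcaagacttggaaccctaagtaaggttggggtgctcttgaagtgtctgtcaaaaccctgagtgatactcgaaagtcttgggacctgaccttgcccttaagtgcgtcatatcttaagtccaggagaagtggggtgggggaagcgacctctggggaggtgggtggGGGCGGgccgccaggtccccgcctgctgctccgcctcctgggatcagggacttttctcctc
Col4a4 to Col4a3, chr1:82586850-82586920, minus strand: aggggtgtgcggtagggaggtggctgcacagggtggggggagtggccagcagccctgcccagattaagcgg
The motifs searched on both strands were the CCAAT box (CCAAT or ATTGG), the GC box (GGGCGG or CCGCCC), the TATA box (TATAAA or TTTATA), the RUNX core (TGTGGT or ACCACA) and the AP-1 element (TGACTCA or TGAGTCA). The *Col13a1* window held TATAAA 237 bases before the start, the *Col8a1* window held TGTGGT and 4 copies of CCGCCC, and the *Col7a1* window held ATTGG and GGGCGG. The *Col15a1* window and the *Col4a4* to *Col4a3* stretch held none, and the RefSeq start of *Col15a1* lies 149 bases from the annotated gene start used above. Over 32841 promoters of the same length, the GC box was in 32.7% and in 14 of 24 members, the CCAAT box in 33.9% and 9 of 24, the RUNX core in 14% and 2 of 24, the TATA box in 12.4% and 2 of 24, and the AP-1 element in 4.46% and 1 of 24. A match describes letters in the window and is not a bound site.

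Collagen VIII changed in 1 of its 2 chains. *Col8a1* (chromosome 16, 57624258 to 57754737, minus strand) stood at 306, 476, 458 and 406 RQ at day 8 in WT, 1067, 912, 964 and 1059 RQ at day 14 and 1108, 1307, 967 and 1170 RQ at day 21. In Het it stood at 227, 499, 438 and 380 RQ, then 407, 820, 916 and 823 RQ, then 930, 1132, 1131 and 1143 RQ. It rose 2.45-fold (log2 1.30 ± 0.14, adjusted p = 6.21e-08). The groups overlapped only through the Het replicate 1 library of day 14. *Col8a2* had 257, 962, 903 and 719 RQ at day 8 in WT and 242, 1303, 1445 and 917 RQ in Het, against 471 to 985 RQ later. The replicate 1 libraries were the low ones at day 8, and *Col8a2* was not called with all libraries (−0.16 ± 0.24, adjusted p = 0.599). Without replicate 1 it was lower at the later days (−0.35, adjusted p = 0.00469). The *Col8a2* to *Col8a1* ratio fell from 1.84 to 0.756 (exact permutation, adjusted p = 0.000178).

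Among the FACITs, the abundant *Col12a1* kept levels of 4055 to 8027 RQ throughout and was not called (log2 0.08 ± 0.12). *Col16a1* fell to 0.812 of its day 8 level (−0.30 ± 0.08, adjusted p = 0.00195), from 1187 to 1653 RQ to 795 to 1499 RQ, lower in 8 of 8 pairs. *Col20a1* rose 1.41-fold (0.50 ± 0.14, adjusted p = 0.00461) between low levels of 1.47 to 3.41 and 1.94 to 4.87 RQ, a call lost without replicate 3 (adjusted p = 0.058). A same-strand gene, *BX649560.1*, overlaps its exons. *Col14a1*, a relative of *Col12a1*, had 74.9, 220, 205 and 172 RQ in WT and 65.0, 253, 256 and 186 RQ in Het at day 8, and 35.0 to 241 RQ later. It fell to 0.625 (−0.68 ± 0.28, adjusted p = 0.0436), but replicate 1 went up 1.23-fold while replicates 2 to 4 went to 0.579, and leaving out replicate 2, 3 or 4 ended the call (adjusted p = 0.100, 0.234 and 0.139). The sparse *Col19a1* (3 to 23 counts), also below the filter at day 8, had a log2 difference of 0.74 ± 0.23 (adjusted p = 0.00857, and 0.0558 without replicate 3).

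Collagen VI, the most abundant type by reads, changed little in its main chains. *Col6a1* had 3507 to 6330 RQ at day 8 and 3074 to 4790 RQ later (log2 −0.21 ± 0.09, adjusted p = 0.0505), and *Col6a2* 2773 to 4426 and 2344 to 3889 RQ (−0.11 ± 0.08). *Col6a3* had 2272 to 3448 and 2062 to 4169 RQ and was higher in 8 of 8 pairs (0.17 ± 0.11, adjusted p = 0.181). With the replicate number as a block it was called (adjusted p = 0.00789), and on total counts its sign turned (−0.13). The *Col6a3* to *Col6a1* ratio went from 0.626 to 0.804 (exact permutation, adjusted p = 0.0204, and 0.107 without replicate 4), and *Col6a2* to *Col6a1* from 0.755 to 0.802 (adjusted p = 0.00377). The additional chains of the type were sparse. *Col6a5* had 0 to 3 counts at day 8 and 2 to 37 later and *Col6a4* 1 to 8 and 1 to 16, both called higher (adjusted p = 6.48e-07 and 0.0114). Both entered the test through their later libraries, so their calls are no independent sign.

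Of the remaining members, *Col7a1* (chromosome 9, 108953586 to 108984875, plus strand) fell from 36.3 to 53.2 RQ to 21.5 to 36.9 RQ (0.723-fold, log2 −0.47 ± 0.08, adjusted p = 1.82e-05), lower in 8 of 8 pairs. *Col26a1*, a short collagen described in gonads, rose 2.03-fold (1.02 ± 0.29, adjusted p = 0.00502). Its day 8 level was 8.57, 67.7, 66.5 and 48.2 RQ in WT and 5.91, 34.3, 41.8 and 23.2 RQ in Het, with replicate 1 lowest. The rise was 11.4-fold in replicate 1 and 1.60-fold in replicates 2 to 4. *Col28a1*, known from peripheral nerve, fell from 0.877 to 6.26 RQ at day 8 to 0.149 to 3.75 RQ later (−1.53 ± 0.44, adjusted p = 0.0046, and 0.0556 without replicate 4).

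**Figure D3:**
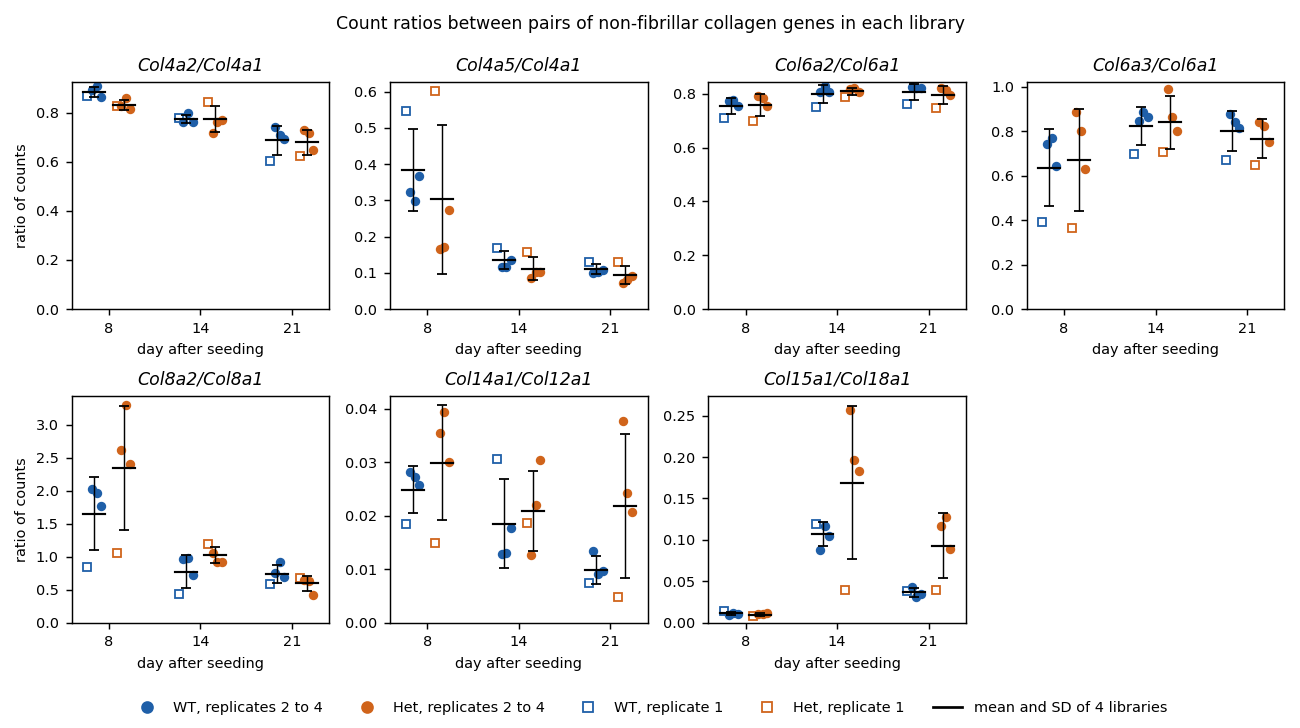
Ratios of the counts of 2 members of a type or class within a library for 7 pairs, by day and genotype, 1 point per library. *Col15a1* to *Col18a1* rises from a geometric mean of 0.0106 to 0.0823, and *Col4a5* to *Col4a1* and *Col8a2* to *Col8a1* fall.

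Days 14 and 21 were then compared, since the study treated them as 1 state of matrix synthesis. *Col22a1* and *Col4a1* went on rising, and *Col16a1*, *Col26a1* and *Col15a1* fell. Of 28 members 3 rose and 3 fell (19.3% of 19839 genes were called, 13.3% higher and 5.94% lower), with a median of −0.04 against 0.06 over all genes. *Col22a1* went from 442 ± 133 to 709 ± 139 RQ (n = 8 each, log2 0.68 ± 0.15, adjusted p = 0.00463), and *Col4a1* from 1279 ± 191 to 1693 ± 223 RQ (0.41 ± 0.09, adjusted p = 0.00317). The *Col4a1* call was lost without replicate 3 (adjusted p = 0.0552). *Col16a1* went from 1340 ± 145 to 976 ± 136 RQ (−0.45 ± 0.09, adjusted p = 0.00211), lower in 8 of 8 pairs, and *Col26a1* from 99.99 ± 29.8 to 54.05 ± 11.2 RQ (−0.86 ± 0.18, adjusted p = 0.00352, and 0.0636 without replicate 4). The sparse *Col6a4*, which was below the filter at day 14 alone and entered through day 21, was called higher (0.96 ± 0.29, adjusted p = 0.0302), though not without replicate 2, 3 or 4 (adjusted p = 0.123, 0.218 and 0.105). *Col8a1* was higher in 8 of 8 pairs but not called (0.37 ± 0.13, adjusted p = 0.0681). Without replicate 1, 7 members rose and 3 fell (28.9% of genes, 18% higher and 10.9% lower), without replicate 3, 1 and 2 (8.52% of genes), and without replicate 4, 2 and 1 (8.58% of genes). The replicate block added *Col18a1* as higher (adjusted p = 0.0308) and *Col6a3* as lower (adjusted p = 0.0322).

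*Col15a1* fell from day 14 to day 21 when the genotypes were averaged (−0.74 ± 0.25, adjusted p = 0.0445), a call lost without replicate 2, 3 or 4 (adjusted p = 0.147, 0.183 and 0.173). In WT alone the change was −1.33 ± 0.13 (adjusted p = 0.00171) and in Het alone −0.18 ± 0.35 (adjusted p = 0.869). The difference between the genotypes in this change was 1.16 ± 0.40 with an unadjusted p of 0.0119, which did not pass the adjustment over all genes (adjusted p = 1.00, or 0.188 without replicate 1). That test was added after the values were seen.

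The second question was whether the Het mutation, which misfolds procollagen I, went with other levels of collagens that do not contain the mutant chain. At days 14 and 21 few members were called: *Col15a1* was higher in Het OBs, and the sparse *Col6a4* and *Col6a5* were lower. *Col6a4* and *Col6a5* passed the low-count filter in WT libraries fitted alone and not in Het libraries fitted alone, so they entered the test through the group where they are high and their calls support nothing. In the same comparison 16.1% of 19839 genes were called (7.26% higher, 8.88% lower), against 10.7% of the 28 tested members. The balance over all genes turned with the scale, to 20.2% called (12.9% higher, 7.25% lower) with TMM and 21.6% (16.6% higher, 5.09% lower) on total counts, while the members' counts were 1 higher and 2 lower on each scale. The median member differed by −0.21 and the median gene by −0.05, and 9 members had an unadjusted p under 0.05. The share of all genes at that unadjusted threshold was not computed, here or with a replicate left out. Such counts of members are thus no result about the members. With the replicate number as a block, 1 member was higher and 7 lower (23.6% of all genes, 9.34% higher and 14.2% lower), and without replicate 1, 2 were higher and 12 lower (39.4% of all genes, 17.2% higher and 22.2% lower). Members with at least 50 counts on average made 5 of the calls with the block and 11 of those without replicate 1. Without replicate 2, 3 or 4, 0 members were called in either direction (1.63%, 1.29% and 0.702% of all genes), with 5, 4 and 3 members at an unadjusted p under 0.05 in edgeR's test.

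*Col15a1* averaged 17.1 ± 5.98 RQ in Het and 11.1 ± 5.38 RQ in WT OBs at days 14 and 21 (n = 8 each, log2 0.77 ± 0.25, edgeR adjusted p = 0.0437), higher in 7 of 8 pairs. The Het to WT ratio was 0.742 in replicate 1 and 1.84 in replicates 2 to 4, and without replicate 1 the difference was 0.97 (adjusted p = 0.000348). The call ended without replicate 2, 3 or 4 (adjusted p = 0.317, 0.196 and 0.253). It rested on day 21, where all Het libraries lay above all WT libraries (1.36 ± 0.18, adjusted p = 0.0111). At day 14 the difference was 0.20 (adjusted p = 0.772). *Col6a4* had 1 to 10 counts in Het and 4 to 16 in WT (adjusted p = 0.0216), and *Col6a5* 2 to 12 and 6 to 37 (adjusted p = 0.0269), with the limit of the filter given above.

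*Col22a1* and *Col13a1*, which rose most with time among members with at least 50 counts on average, had lower mean levels in Het. These differences fell short of the threshold with all libraries. *Col15a1*, the next in rise, was higher in Het, as given above. *Col13a1* differed by −0.52 ± 0.17 (adjusted p = 0.0531, block 0.0335, without replicate 1 0.00397) and *Col22a1* by −0.42 ± 0.15 (adjusted p = 0.0641, block 0.0421, without replicate 1 0.0107). Of the 11 osteoblast and osteocyte markers, 4 were called lower in Het at days 14 and 21 and 0 higher (median log2 −0.53), against 8.88% and 7.26% of all genes. The part of the osteoblasts in the *Col13a1* and *Col22a1* values was not tested. *Col4a5* was higher in Het than in WT in replicate 1 (1.10-fold) and lower in replicates 2 to 4 (0.607-fold). Its Het level at day 14 was 215, 91.8, 111 and 104 RQ against 226, 169, 167 and 200 RQ in WT, and at day 21 254, 117, 128 and 121 RQ against 201, 185, 195 and 191 RQ. The Het libraries of replicates 2 to 4 thus lay below all WT libraries on both days. The log2 difference was −0.44 ± 0.18 (adjusted p = 0.114, block 0.00657), and −0.72 without replicate 1 (adjusted p = 2.09e-06).

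Its head-to-head neighbour *Col4a6* had 12, 2.23, 2.63 and 3.47 RQ in Het at day 14 and 13.5, 2.82, 3.97 and 2.70 RQ at day 21. In WT the levels were 9.23, 7.78, 8.02 and 9.03 RQ and 8.23, 8.29, 9.89 and 9.89 RQ. Replicate 1 was highest among the Het libraries for both neighbours, and replicates 2 to 4 had 0.337 of the WT level of *Col4a6*. With all libraries *Col4a6* differed by −0.75 ± 0.36 (adjusted p = 0.166, block 0.0121), and without replicate 1 by −1.56 (adjusted p = 1.54e-06). The chondrocyte markers also split by replicate: in replicate 1 their sum was 22648 RQ in Het and 22024 RQ in WT at day 14, and 7995 RQ in Het and 7830 RQ in WT at day 21. In replicates 2 to 4 of days 14 and 21 it ran from 1200 to 13012 RQ over both genotypes and days. *Col2a1*, 1 of these markers, also differed by genotype in replicates 2 to 4. At day 14 it had 18979, 957, 1545 and 2078 RQ in Het in replicates 1 to 4, and 17571, 5189, 4856 and 10450 RQ in WT. At day 21 it had 6805, 1082, 945 and 982 RQ in Het, and 6806, 2622, 2782 and 4713 RQ in WT. With all libraries of days 14 and 21, 1 of the 8 markers was called lower in Het and 0 higher (median log2 −0.68), against 8.88% and 7.26% of all genes. The part of the chondrocytes in the *Col4a5* and *Col4a6* values was not tested.

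Without replicate 1, *Col4a1* (−0.38, adjusted p = 0.000233), *Col4a2* (−0.42, adjusted p = 0.000534), *Col12a1* (−0.31, adjusted p = 0.0343), *Col18a1* (−0.33, adjusted p = 0.0129) and *Col20a1* (−0.36, adjusted p = 0.0469) were also lower in Het, and *Col14a1* was higher (0.69, adjusted p = 0.0467). With all libraries these differed by −0.23, −0.24, −0.18, −0.07, −0.19 and 0.51 and none was called. *Col28a1* differed by −1.30 ± 0.56 (adjusted p = 0.12, block 0.0037), and by −2.12 without replicate 1 (adjusted p = 2.27e-05), with a Het to WT ratio of 0.764 in replicate 1 and 0.217 in replicates 2 to 4. Fitted alone, the WT libraries of days 14 and 21 passed the sparse *Col28a1* through the low-count filter and the Het libraries did not. It entered the test through the group where it is high, so these p-values support nothing. The collagen VI chains *Col6a1* (0.01), *Col6a2* (0.01) and *Col6a3* (−0.01), and *Col7a1* (0.02), *Col16a1* (−0.10), *Col8a1* (−0.25), *Col8a2* (−0.21), *Col26a1* (−0.34) and *Col23a1* (−0.21) were called neither with all libraries, nor with the block, nor without replicate 1.

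**Figure D4:**
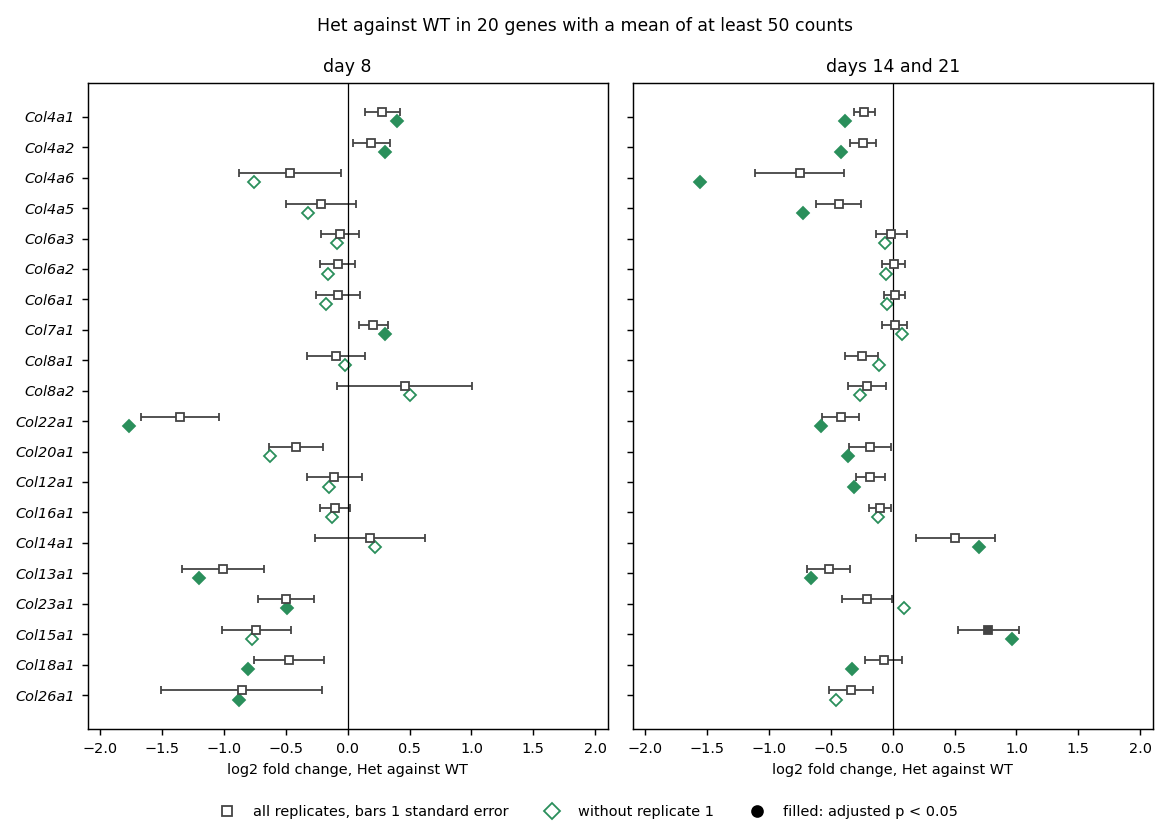
Het against WT log2 fold change of 20 members at day 8 and at days 14 and 21. Squares with standard errors use all replicates, green diamonds leave out replicate 1, and filled symbols passed an adjusted p under 0.05. At days 14 and 21 the diamonds of *Col4a6* (−1.56) and *Col4a5* (−0.72) lie well below their squares (−0.75 and −0.44).

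At day 8, before the rise of the OB genes, 0 of 23 tested members were called between the genotypes by edgeR's test, as were 0.0% of 18222 genes. By that test 3 members had an unadjusted p under 0.05, and the share of all genes at that threshold was not computed. DESeq2 called 1 member lower (2.52% of genes, 1.37% higher and 1.14% lower), and the replicate block called *Col26a1* lower (−0.86, adjusted p = 0.0174, 1.56% of all genes called, 0.582% higher and 0.982% lower). The 3 members were *Col22a1* (10.1 ± 2.98 against 25.4 ± 9.20 RQ, n = 4 each, −1.35 ± 0.32, adjusted p = 0.202), *Col13a1* (8.99 ± 1.15 against 18 ± 7.87 RQ, −1.0 ± 0.33, adjusted p = 0.343) and *Col15a1* (2.32 ± 0.839 against 3.85 ± 0.731 RQ, −0.74 ± 0.28, adjusted p = 0.417). For *Col15a1* no Het library reached a WT library. For *Col22a1* replicate 1 was 1.14-fold higher in Het, and replicates 2 to 4 had 0.293 of the WT level.

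Without replicate 1, 3 members were higher and 5 lower in Het at day 8 (18.7% of 18347 genes, 4.55% higher and 14.2% lower). *Col22a1* (−1.77, adjusted p = 6.61e-05), *Col13a1* (−1.20, adjusted p = 0.000352), *Col26a1* (−0.88, adjusted p = 0.0129), *Col18a1* (−0.80, adjusted p = 0.0131) and *Col23a1* (−0.49, adjusted p = 0.0215) were the lower ones. *Col4a1* (0.40, adjusted p = 0.00484), *Col4a2* (0.30, adjusted p = 0.0242) and *Col7a1* (0.30, adjusted p = 0.0492) were the higher ones. Summed osteoblast and osteocyte markers at day 8 were 785 to 829 RQ in replicate 1 and 784 to 1896 RQ in replicates 2 to 4, and their part was not tested.

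The difference between the Het effects at days 14 and 21 and at day 8 was tested in a model of all 6 groups. By edgeR 0 of 28 members were called (0.171% of 20434 genes, 0.166% higher and 0.00489% lower). In edgeR's test 5 members had an unadjusted p under 0.05, and the share of all genes at that threshold was not computed. DESeq2 called 1 member higher (0.461% of genes, 0.362% higher and 0.0991% lower). *Col15a1* had the smallest p, with a difference of effects of 1.52 ± 0.37 (adjusted p = 0.158): its Het level was below WT at day 8 and above WT later. Without replicate 1 (4.72% of genes called, 3.93% higher and 0.794% lower) *Col15a1* (1.76, adjusted p = 0.000461) and *Col22a1* (1.19, adjusted p = 0.0256) were called higher. *Col4a1* (−0.78, adjusted p = 8.57e-05), *Col4a2* (−0.72, adjusted p = 0.00166) and *Col8a2* (−0.77, adjusted p = 0.0376) were called lower. In replicates 2 to 4 the *Col4a1* level of Het OBs was above WT at day 8 and below WT later.

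Of the 7 count ratios, none differed between Het and WT at days 14 and 21 after adjustment over the 14 ratio tests. *Col4a5* to *Col4a1* was 0.0999 in Het and 0.121 in WT and *Col15a1* to *Col18a1* 0.108 and 0.0624 (two-sided exact permutation tests, adjusted p = 0.170 for both). With relabelling only within a replicate number the first had an adjusted p of 0.037. Without replicate 1 both, and *Col14a1* to *Col12a1*, had an adjusted p of 0.0182 by the exact permutation test.

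The members were then set beside the fibrillar chains. Their summed level changed little with time, with a mean of 22715 RQ in WT OBs at day 8 and 26142 RQ at day 14, while the 15 chain genes left out by the rule, which include *Col1a1* and *Col1a2*, went from 119913 to 312737 and 336683 RQ in WT and from 92593 to 230728 and 270643 RQ in Het. The members' share of all collagen reads was 16.1% in WT at day 8 (15% to 18.6%), 7.83% at day 14 (7.26% to 8.96%) and 6.80% at day 21 (6% to 7.48%). In Het it was 19.1% (19.0% to 19.2%), 9.25% (7.90% to 9.95%) and 7.99% (7.77% to 8.46%). The Het and WT libraries did not overlap at days 8 and 21 and overlapped at day 14. These shares are a description with no test.

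**Figure D5:**
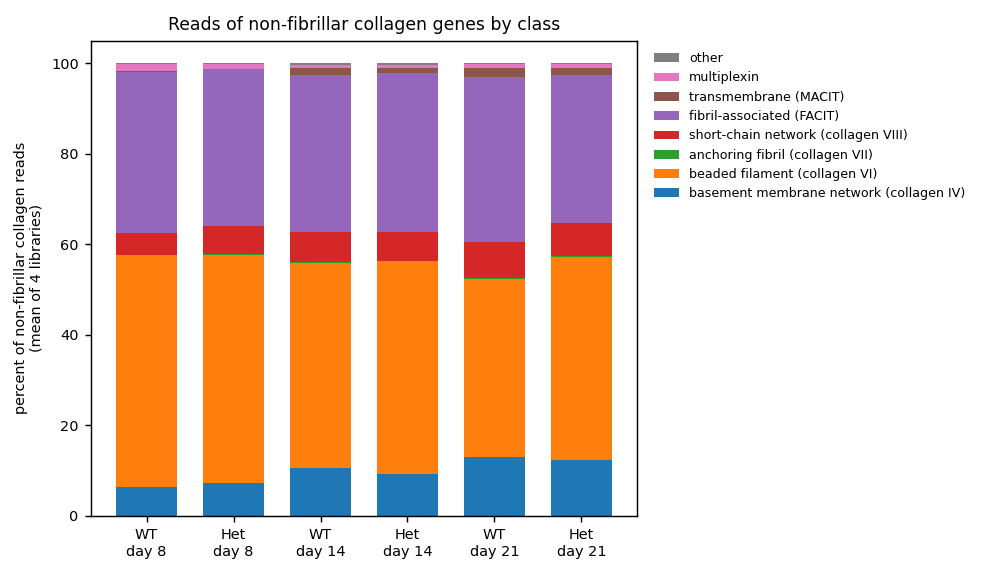
Composition of the members' reads by collagen class, as the mean percent over the 4 libraries of a genotype and day. The collagen IV part grows from 6.28% to 13% in WT and from 7.26% to 12.2% in Het, the collagen VI part shrinks from 51.3% to 39.3% in WT and from 50.3% to 45.0% in Het.

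Within the members, collagen IV took 6.28%, 10.5% and 13% of reads at days 8, 14 and 21 in WT and 7.26%, 9.30% and 12.2% in Het. The collagen VI part was 51.3%, 45.4% and 39.3% in WT and 50.3%, 46.9% and 45.0% in Het. The transmembrane collagens went from 0.121% to 2.01% in WT and from 0.0765% to 1.39% in Het, with *Col13a1* making up most of their reads only at the later days. Collagen VIII went from 4.85% to 8.06% in WT and from 6.17% to 7.44% in Het.

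Genes that work with these collagens were taken as 2 lists, and a call is again an adjusted p under 0.05 in edgeR's test. Of 24 basement membrane partners (laminins, nidogens, perlecan and the like), 8 rose and 7 fell from day 8 to days 14 and 21, with a median of −0.12, against 40.9% higher and 17.4% lower over all genes. The laminin chain *Lama3* (2.05 ± 0.20, adjusted p = 1.12e-08) and the collagen IV binding protein *Sparc* (1.46 ± 0.11, adjusted p = 1.66e-10) rose with *Col4a1* and *Col4a2*. The fibulin *Fbln2* (−1.58 ± 0.17, adjusted p = 4.83e-08) and *Tinagl1* (−1.47 ± 0.40, adjusted p = 0.00347) fell. From day 14 to day 21, where 13.3% of all genes were higher and 5.94% lower, 4 rose, with *Lama3* (1.24) and *Lama5* (0.85) changed most, and 5 fell, with *Pxdn* (−0.50), the peroxidase that crosslinks collagen IV, and *Nid2* (−0.43) changed most. None of the 24 was called between Het and WT at either stage by edgeR's test. That test called 0.0% of 18222 genes at day 8, so no list could hold a call there, and 16.1% of 19839 genes at days 14 and 21.

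Of 19 tested collagen receptors and binding partners, 10 rose and 3 fell from day 8 to days 14 and 21, with a median of 0.29, against the same shares over all genes. *Lair1*, an inhibitory collagen receptor of leukocytes (3.40 ± 0.24, adjusted p = 7.59e-11), and the integrin *Itga10* (2.22 ± 0.13, adjusted p = 6.39e-12) rose most among genes with at least 50 counts on average, while the collagen receptor kinase *Ddr1* (−0.79 ± 0.13, adjusted p = 2.53e-05) and *Vwa1* (−0.42 ± 0.12, adjusted p = 0.00595) fell. From day 14 to day 21, *Lair1* (1.10) and *Antxr2* (0.22) rose, and *Cspg4* (−0.23), a proteoglycan that binds collagen VI, fell. Between the genotypes at days 14 and 21, *Lair1* was higher in Het (0.90 ± 0.22, adjusted p = 0.0132) and *Antxr2*, a receptor that takes up collagen VI, was lower (−0.22 ± 0.07, adjusted p = 0.0371). The macrophage markers moved with *Lair1*: 10 of 11 rose from day 8 to days 14 and 21, and 7 of 11 were higher in Het at days 14 and 21, and their part in its values was not tested.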

How the data were processed

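Gene counts of 24 libraries (4 per genotype and day) were analysed. Per the labels the libraries were polyA RNA made with an Illumina TruSeq kit. The submitters' processing notes name cutadapt 2.5, STAR 2.73a, Subread featureCounts 1.6.4 and mm10. The deposited values are raw counts per gene, summing to 17140202 to 59734231 per library. Strand, multimapping and read filters of the counting are not given in the sources used here, and no molecular identifiers were used.

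Members were matched by symbol, and coordinates come from GENCODE vM21, which holds 54587 of the 55335 gene IDs (*Col25a1* is not among them). The members and gene lists were chosen with earlier results of these data known. Counts were divided by the geometric mean of *Actg1*, *Actb*, *Mrfap1* and *Sdha* counts, after the study's normalization. edgeR 4.0.16 (R 4.3.3) fitted quasi-likelihood models to all genes passing filterByExpr, with day or genotype as a covariate or 6 group means, and Benjamini-Hochberg adjustment at 0.05. Ratios of counts, for genes with at least 10 counts in every library, were tested by two-sided exact permutation with numpy 2.4.6 and adjusted over 14 tests. Members with a mean of at least 50 counts and a call in at least 1 of the 5 comparisons were named with values, type mates beside them, and of the partner lists up to 2 called genes each way. The models were also run on simulated counts of independent libraries, without the shift of replicate 1 or shared preparations. That run cannot give the error rates of the calls made here.

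Labels number the replicates 1 to 4 in every group. The deviations from the group means of libraries with the same number correlated in all 12 pairs (0.193 to 0.713, median 0.453, and 0.193 to 0.622 among replicates 2 to 4). The median was −0.124 over 36 pairs of different numbers, and all pairs of replicate 1 with another number were negative. Different numbers among replicates 2 to 4 reached 0.567. At day 21, WT replicate 4 had 0.193 with Het replicate 4 and 0.299 with Het replicate 2. The numbers thus set replicate 1 apart, and a pairing of single libraries among replicates 2 to 4 is not established. Pairs in the text follow the labels. The replicate block was an alternative fit. No replicate pair agreed within sampling noise (chi-square per degree of freedom at least 4.776). Other alternatives were TMM, DESeq2 size factors and total counts as the scale, DESeq2 1.42.0, no low-count filter, replicate 1 as a covariate, each replicate left out and single days or genotypes. Promoters came from RefSeq.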

Additional observations from a re-analysis of the deposited data

Results flagged for a closer look

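Among 120 groups of 4 libraries, 10 had 1 library that stood far from the other 3 (Dixon's test), where chance flags about 1 in 20 groups, and 8 of the 10 were replicate 1. In Het OBs at day 14, replicate 1 had 215.2 RQ of *Col4a5* against 91.83 to 110.8 in the others, 12.01 RQ of *Col4a6* against 2.234 to 3.466, 1158 RQ of *Col4a2* against 771.3 to 828.6 and 176.0 RQ of *Col18a1* against 101.6 to 103.5. At day 21 it had 253.7 RQ of *Col4a5* against 116.7 to 128.1, 13.46 RQ of *Col4a6* against 2.699 to 3.972 and 930.4 RQ of *Col8a1* against 1131 to 1143. In WT OBs at day 14, replicate 1 had 1268 RQ of *Col16a1* against 1463 to 1499. The others were replicate 2 of Het at day 14 for *Col13a1*, 433.1 RQ against 214.5 to 224.5, and replicate 3 of WT at day 14 for *Col7a1*, 28.85 RQ against 35.72 to 36.86.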

How the results depend on the processing

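Depth limits the 9 members under 50 counts on average, and counting error adds to every value of theirs. Leaving out 1 replicate in turn moved the members called in Het against WT at days 14 and 21 over 0 to 2 higher and 0 to 12 lower, at day 8 over 0 to 3 and 0 to 5, and in the difference of the effects over 0 to 2 and 0 to 3. For days 14 and 21 against day 8 the range was 11 to 14 higher and 4 to 8 lower, and for day 21 against day 14 it was 1 to 7 and 1 to 3. In Het against WT at days 14 and 21, no low-count filter gave 0 higher (3.23% of all genes were higher), the replicate block 7 lower (14.2% lower), replicate 1 as a covariate 8 lower (15.2%), day 14 alone 0 and 0 (0.185% called) and day 21 alone 0 lower (0.551%). At day 8, DESeq2 and the block gave 1 lower each (1.14% and 0.982% of genes) and the covariate 4 lower (2.38%), and DESeq2 gave 1 higher in the difference of the effects. Het alone gave 2 lower from day 8 (9.95% of genes) and 0 and 0 from day 14 to day 21 (0.374% called), where the covariate gave 5 higher (17%). On total counts *Col6a3* reversed to −0.13 from day 8. For log2 ratios of Het to WT, relabelling within replicate numbers brought *Col4a5* to *Col4a1* (−0.27) past the threshold. Its range without 1 replicate was −0.34 to −0.21, that of *Col14a1* to *Col12a1* 0.33 to 0.92, of *Col15a1* to *Col18a1* 0.56 to 1.33, of *Col4a2* to *Col4a1* −0.042 to 0.0044, of *Col6a2* to *Col6a1* −0.0096 to 0.0047, of *Col6a3* to *Col6a1* −0.053 to 0.011 and of *Col8a2* to *Col8a1* −0.17 to 0.21. From day 8, *Col6a3* to *Col6a1* had 0.20 to 0.44 and *Col14a1* to *Col12a1* −0.85 to −0.66. Per kilobase the members' share of collagen reads was 21.1% in Het at day 8 and 8.73% at day 21. Beside the calls given above, the replicate block changed no other call of a named gene. The cause of these shifts was not tested.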
